A study of Mus musculus with 8 samples.

Results

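The effect of inhibiting G9a and GLP on nuclear compartments was examined in Suv39h WT mouse embryonic stem cells (mESCs) by subtracting, bin by bin, the compartment score of the untreated library (Suv39h WT) from that of the library treated with UNC0642 (Suv39h WT + UNC). The comparison took in all 100-kb autosomal bins with a non-zero score in both libraries, which were 23985 of the 24005 bins scored in any of the 8 libraries of the series. Suv39h WT is the wild-type mESC clone ADF1-26, and Suv39h WT + UNC is the same line given 2 µM UNC0642 for 3 days. The 6 other libraries were Suv39h DKO, a separate clone (ADF157) lacking SUV39H1 and SUV39H2, Suv39h DKO + UNC with the same UNC0642 treatment, and 4 libraries of a conditional Setdb1 line. These 4 were untreated cells (Setdb1 WT), cells with 2 µM UNC0642 for 3 days (Setdb1 WT + UNC), cells with 800 nM 4-hydroxytamoxifen for 5 days (Setdb1 KO), and cells with 4-hydroxytamoxifen for 2 days followed by UNC0642 for 3 days (Setdb1 KO + UNC). All cells were grown on gelatin with LIF in a medium of serum replacement and little serum. Each group had 1 deposited set of scores, called a library here, although Hi-C was repeated in the study. Scores of single repeats were not analysed here, so no difference below has a replicate check, no test was made, and culture-to-culture variation cannot be told apart from UNC0642.

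G9a and GLP are histone methyltransferases that act as a heterodimer and place H3K9me1 and H3K9me2, marks of silent chromatin that cover large domains in mESCs. UNC0642 occupies their substrate site and blocks their activity. H3K9me2 domains overlap the B compartment, the set of regions that contact one another at the nuclear lamina and around nucleoli and that hold few active genes. The A compartment holds most active genes. Hi-C separates the compartments because regions of one kind touch each other more often than chance, and the first eigenvector of the contact map gives each bin a score, positive in A and negative in B. The deposited score has no physical unit and averages 0 on every autosome in each library, so a rise in one part of a chromosome is always balanced by a fall elsewhere on it, and a general move towards A or B could not be seen. The files hold no read counts. The study lists read numbers per Hi-C repeat, but as the repeat or pool behind each file is not stated, no depth could be given for a score.

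The pluripotency genes were in the active compartment. All 18 lay in A bins in both libraries, among them Pou5f1, which encodes OCT4 (0.0658 in Suv39h WT and 0.0629 in Suv39h WT + UNC), and Sox2 (0.0448 and 0.0447). The germline genes, with 18 of 21 bins positive in each library, and the lineage regulators, with 21 of 24, were mostly in A as well, so these scores do not show the identity of the cells.

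Scores of the treated and untreated cells were close, though how this compares with the spread between repeats was not analysed here. They correlated at r = 0.984 across the 23985 bins, which are neighbours along chromosomes and share base composition. The SD of the change was 0.00488, or 17.9% of the SD of the Suv39h WT scores, and its median was 1.66e-05. The median size of a change was 0.00296 and 95% of bins changed by less than 0.00991. Counting changes of at least 0.01, 543 bins rose (2.26% of bins) and 608 fell (2.53%), while 95.2% stayed within 0.01. The largest rise was 0.0364 and the largest fall was -0.0313.

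Few bins changed compartment. The sign changed from B to A in 510 bins (2.13%, 95% Wilson interval 1.95 to 2.32) and from A to B in 430 bins (1.79%, 1.63 to 1.97), and 96.1% of bins kept their sign. These intervals cover the counting of bins only and are too narrow because neighbouring bins are not independent. Most switches were at scores close to 0. Of the 940 switching bins, 736 had a Suv39h WT score within 0.005 of 0, a range that held 10.6% of all bins, and 185 changed by at least 0.01. Only 40 switching bins started from a score of 0.01 or more either way. B to A switches outnumbered A to B switches on 14 of the 19 autosomes, with the reverse on 4. This excess depends on where 0 is set. With the implied mean of each chromosome added to the scores, A to B switches (2.46% of bins) outnumbered those from B to A (2.20%), and with quantile normalization of the 8 libraries both shares were 1.95%.

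The sequences below are promoters of chosen genes in bins that changed, and each is a small part of its 100-kb bin. The promoters are those of Irf4, a transcription factor of lymphocytes and melanocytes in a rising run that crossed from B to A, Inhba, which encodes the inhibin beta A subunit in a falling run within B, and Tfcp2l1, a naive pluripotency factor whose bin rose within A. They run from upstream of the gene start to just past it, are from RefSeq on GRCm38.p6 and are all on the plus strand, at chr13:30748983-30749282, chr13:16011601-16011900 and chr1:118627695-118627994. Capitals mark CG dinucleotides, of which Irf4 has 11, Inhba 7 and Tfcp2l1 21 in 300 bases.
Irf4: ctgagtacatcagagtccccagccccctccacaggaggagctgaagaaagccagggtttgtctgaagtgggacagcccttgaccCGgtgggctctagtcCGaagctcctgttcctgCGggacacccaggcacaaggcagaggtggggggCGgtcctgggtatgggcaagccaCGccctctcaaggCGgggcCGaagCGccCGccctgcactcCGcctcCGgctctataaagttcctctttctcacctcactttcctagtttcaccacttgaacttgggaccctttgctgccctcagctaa
Inhba: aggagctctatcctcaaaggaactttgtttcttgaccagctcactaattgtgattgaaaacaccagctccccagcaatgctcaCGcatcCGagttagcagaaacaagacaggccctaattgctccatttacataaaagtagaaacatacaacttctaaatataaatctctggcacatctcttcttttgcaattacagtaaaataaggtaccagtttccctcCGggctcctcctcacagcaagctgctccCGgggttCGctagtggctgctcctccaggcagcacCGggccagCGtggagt
Tfcp2l1: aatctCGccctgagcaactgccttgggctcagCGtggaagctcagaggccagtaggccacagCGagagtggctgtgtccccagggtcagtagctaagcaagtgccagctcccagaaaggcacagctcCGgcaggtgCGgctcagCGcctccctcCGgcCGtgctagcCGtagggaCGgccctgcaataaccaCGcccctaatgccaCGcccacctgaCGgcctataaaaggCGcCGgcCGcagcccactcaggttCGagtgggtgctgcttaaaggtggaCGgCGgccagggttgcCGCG
The median over the 32851 promoters of the table was 7, and 24.8% of them held at least as many CG dinucleotides as that of Tfcp2l1, 41.4% at least as many as Irf4 and 52.1% at least as many as Inhba. The letters GATC, the DpnII site at which the chromatin was cut, occur in 48.0% of these promoters and in none of the windows shown for Irf4, Inhba and Tfcp2l1. The base composition of whole bins, which these promoters do not show, is returned to below, since the change differed with it.

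The change was next described by the starting score. When classes were taken from Suv39h WT itself, the 2978 deep B bins (score below -0.03) rose by 0.00116 on average, with 2.82% rising and 0.873% falling by at least 0.01. The 4275 strong A bins (0.03 or more) fell by 0.000720 on average, with 1.12% rising and 2.81% falling. Suv39h WT enters both the class and the change, so any error of that library alone moves deep B bins up and strong A bins down in such a table. Classes taken from the mean of the 6 libraries outside the comparison had the reverse order. Deep B bins (2994) then had a mean change of -0.000193, with 1.77% rising and 2.34% falling, and strong A bins (4379) one of 0.000184, with 2.26% rising and 1.51% falling. With classes from the mean of the pair, the values were 5.82e-05 in deep B and -8.50e-05 in strong A. All these means are small beside the SD of single bins within a class, which was 0.00477 in deep B and 0.00453 in strong A by the independent classes. No direction of deep B or strong A bins held under each choice of class.

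**Figure D1:**
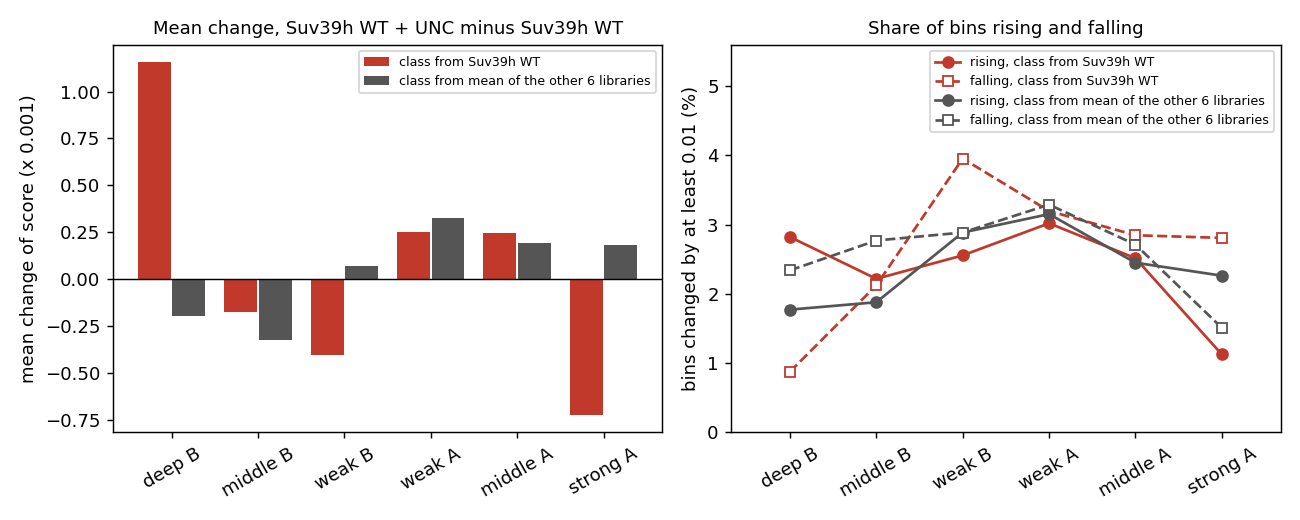
Change of compartment score between Suv39h WT + UNC and Suv39h WT by score class, with the mean change in units of 0.001 on the left (bars from 0) and the percentage of bins rising (filled circles, solid lines) or falling (open squares, dashed lines) by at least 0.01 on the right. Red is for classes cut on Suv39h WT and grey for classes cut on the mean of the other 6 libraries, and deep B and strong A change sign between them.

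The 4 classes between these are given by the other 6 libraries. Weak A bins (0 to 0.01) had the most calls by the independent classes, 3.15% rising and 3.29% falling, and weak B bins (-0.01 to 0) had 2.88% each way. The mean of weak B turned with the class, from -0.000401 when cut on Suv39h WT to 0.000431 when cut on Suv39h WT + UNC. Middle A bins (0.01 to 0.03) had 2.45% rising and 2.71% falling. Middle B bins (-0.03 to -0.01), the largest class with 7511 bins, had fewer rises (1.88%) than falls (2.77%) and a mean change of -0.000324, and the mean was also negative with classes from Suv39h WT (-0.000176), from Suv39h WT + UNC (-0.000421) and from the mean of the pair (-0.000328).

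The chromosomes differed in how much they changed. At 0.01 the largest shares of changed bins were on chromosomes 13 (9.80%) and 14 (9.17%), with 7.69% on chromosome 1, but chromosome 1 changed most relative to the spread of its scores. Its change had an SD of 25.7% of that of its Suv39h WT scores, against 12.4% on chromosome 17, 22.1% on chromosome 14 and a median of 16.7% over the 19 autosomes. Chromosome 1 had 35 rising and 113 falling bins. It holds 8.02% of all bins, 18.6% of the falling bins and 6.45% of the rising bins. Its correlation between the libraries was 0.967 and 93.0% of its bins kept their sign, the lowest values among the autosomes, against 0.992 and 97.6% on chromosome 17. Without chromosome 1, 508 bins rose and 495 fell.

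A fixed threshold of 0.01 does not treat chromosomes alike, because each eigenvector has a set length and scores are smaller on chromosomes with more bins. The SD of the Suv39h WT scores ranged from 0.0220 on chromosome 2 to 0.0405 on chromosome 19. With a threshold of 0.4 SD of the chromosome, 416 bins rose and 476 fell. Chromosome 1 then had 69 rising and 137 falling bins (10.7% of its bins changed), followed by chromosome 14 with 7.10% and chromosome 3 with 6.31%. Chromosome 19 went from 6.00% changed at 0.01 to 0.686% at 0.4 SD, and chromosome 17 from 1.41% to 0.218%. At 0.01, more bins fell than rose on 11 autosomes and more rose than fell on 8.

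**Figure D2:**
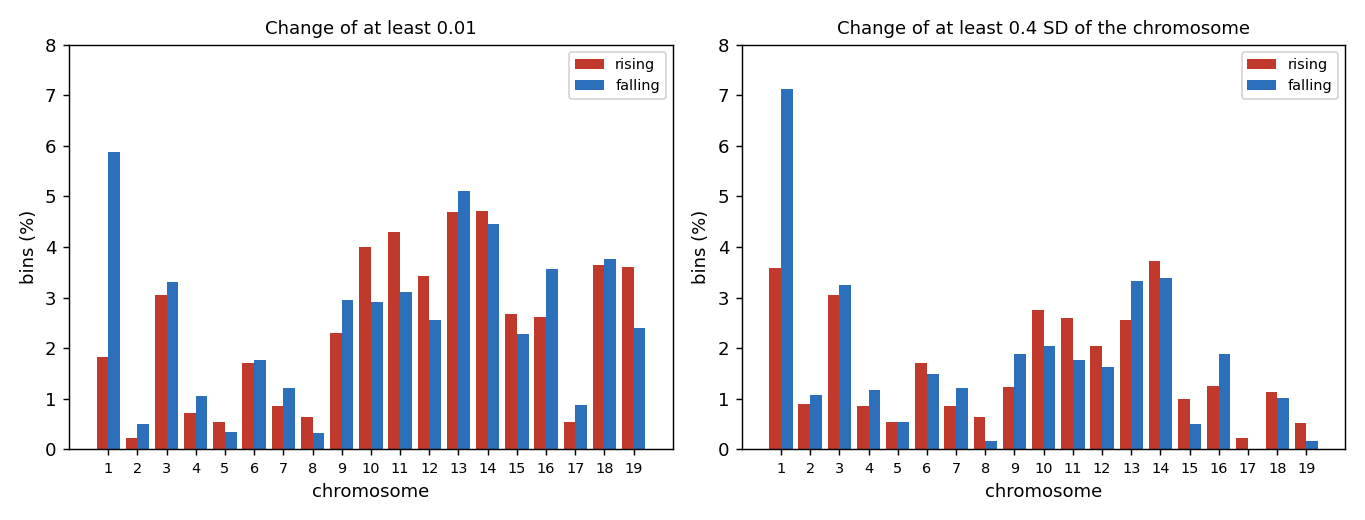
Percentage of bins rising (red) and falling (blue) on each autosome in Suv39h WT + UNC against Suv39h WT, for a change of at least 0.01 (left) and of at least 0.4 SD of the Suv39h WT scores of the chromosome (right). The falling bins of chromosome 1 are the highest bar in both panels, and chromosomes 13 and 14 follow at 0.01.

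The falls on chromosome 1 were gathered at its centromere-proximal end. From its first scored bin at 3 Mb to 35 Mb, a range chosen after its values were seen, 88 of 320 bins fell and 3 rose by at least 0.01, and 79.7% of the bins lay lower in Suv39h WT + UNC. The mean change was -0.00569. In the other 1604 bins of the chromosome 25 fell and 32 rose, with a mean of 0.00113, the counterpart that the zero average of a chromosome forces. The fall was steepest at the start. It averaged -0.0155 over the 20 bins up to 5 Mb, -0.00952 from 5 to 10 Mb, -0.00582 from 10 to 15 Mb and between -0.00428 and -0.00311 in the 4 windows of 5 Mb up to 35 Mb. Of the 470 windows of 5 Mb with at least 40 bins on all autosomes, the 6 with the lowest means were these on chromosome 1, and the lowest elsewhere was -0.00279 on chromosome 14. The highest mean was 0.00326, on chromosome 14 from 25 to 30 Mb, and 93.4% of windows lay within 0.002 of 0.

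The untreated library was the one that stood out there. Over the bins up to 5 Mb mean scores without and with UNC0642 were 0.0452 and 0.0297 in Suv39h WT, 0.0311 and 0.0102 in Suv39h DKO, 0.0144 and 0.0118 in Setdb1 WT, and 0.0145 and 0.0150 in Setdb1 KO. Suv39h WT was highest of the 8, and Suv39h WT + UNC lay beside Suv39h DKO and above the 5 remaining libraries. From 3 to 35 Mb, Suv39h WT had the highest score of the 8 libraries in 184 of 320 bins and Suv39h WT + UNC in 26. UNC0642 was followed by falls of about the same mean size in Suv39h DKO, -0.00568 against -0.00569 in Suv39h WT, and by smaller changes in Setdb1 WT (-0.00205) and Setdb1 KO (0.000204). With 1 library a group, UNC0642 and differences between cultures cannot be told apart here. In compartment terms, 45 bins of the range went from A to B and 9 from B to A, and the share of A bins was 69.1% in Suv39h WT and 57.8% in Suv39h WT + UNC.

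**Figure D3:**
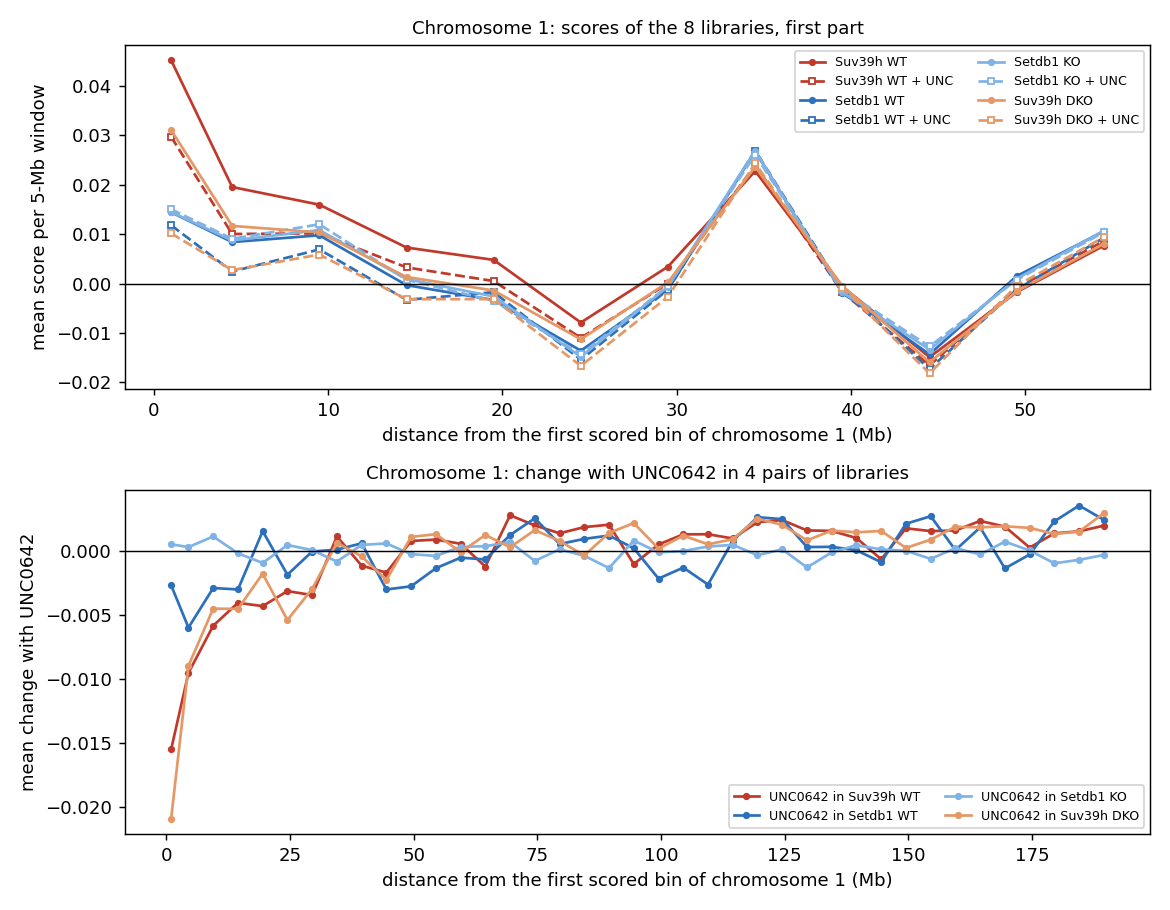
Mean compartment score of the 8 libraries in 5-Mb windows over the first part of chromosome 1 (top, solid without and dashed with UNC0642) and the mean change with UNC0642 along the whole chromosome in the 4 pairs of libraries (bottom), against distance from the first scored bin in Mb. Suv39h WT starts at 0.0452, above the other 7 libraries, and the change returns close to 0 in both Suv39h backgrounds beyond the 35 Mb point of the chromosome.

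Outside chromosome 1 the changes had little extent along the chromosome. The correlation of a bin's change with that of the next bin was 0.283 on chromosome 1 and between -0.0419 and 0.114 on the other 18 autosomes (mean 0.0395). On chromosome 1 it was 0.242 at 1 Mb and still 0.123 at 10 Mb, and on the other 18 the means were 0.0280 and 0.00197. These bins share contact maps with their neighbours and are given as a description. The next-bin correlation of the UNC0642 change averaged 0.459 on those 18 autosomes in Setdb1 WT, 0.158 in Suv39h DKO and 0.0779 in Setdb1 KO, all above the value in Suv39h WT. Within chromosome 1 it was 0.206 up to 35 Mb and 0.0476 beyond.

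Adjacent bins changing the same way by at least 0.01 formed 29 rising and 38 falling runs. The rising runs held 61 of the 543 rising bins (11.2%) and the falling runs 96 of the 608 falling bins (15.8%). None of the rising runs was on chromosome 1 and none was over 3 bins. Of the falling runs, 17 were on chromosome 1, 16 of them before 35 Mb, and the 6 of at least 3 bins were all there. The 21 falling runs on other chromosomes had 2 bins each.

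The longest falling run, of 12 bins, was chr1:3000001-4200000, which holds the start of Xkr4, an XK-family gene. Its mean score fell from 0.0460 in Suv39h WT to 0.0297 in Suv39h WT + UNC, a change of -0.0163 with an SD of 0.00322 over its bins. The other 6 libraries were between 0.00812 (Suv39h DKO + UNC) and 0.0312 (Suv39h DKO). The next, of 6 bins at chr1:4300001-4900000, holds the starts of Rp1, a photoreceptor microtubule gene, Sox17, the endoderm regulator, Mrpl15, a mitochondrial ribosomal protein gene, Lypla1, an acyl-protein thioesterase gene, Gm37988 and Tcea1, a transcription elongation factor gene. It went from 0.0457 to 0.0294, with the other 6 libraries between 0.0137 and 0.0297. Both libraries of the pair stayed in A across these runs.

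The remaining long falling runs of chromosome 1 had the same form. The 4 bins at chr1:6100001-6500000, with the autophagy gene Rb1cc1, Alkal1 and the zinc finger gene St18, went from 0.0330 to 0.0164, and the 4 bins at chr1:13200001-13600000, with the nuclear receptor coactivator gene Ncoa2 and the translocon gene Tram1, from 0.0312 to 0.0157. The 3 bins with Oprk1, the kappa opioid receptor gene, went from 0.0273 to 0.0111. The 3 bins with Rrs1, Adhfe1, Vxn, Mybl1, Vcpip1 and Sgk3 went from 0.0269 to 0.0122. Of the runs of 2 bins, that overlapping Pcmtd1 went from 0.0262 to 0.00942, and one with no gene start at chr1:7700001-7900000 crossed from 0.0128 to -0.00365. The largest single fall of all bins was at chr1:6800001-6900000, which overlaps the end of St18, from 0.0310 to -0.000308, and the bin at chr1:8300001-8400000, which overlaps the end of Sntg1, a syntrophin gene, went from 0.0156 to -0.00991.

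Of the 10 falling runs described, 2 were on other chromosomes, both within B. The 2 bins at chr11:105700001-105900000, within the synaptic scaffold gene Tanc2, went from -0.00556 to -0.0258. The bin with the start of Tanc2, outside this run, moved the other way, from -0.0241 to -0.0122. In the other 6 libraries the 2 bins of the run scored between -0.0292 and -0.0161, so Suv39h WT was the highest of the 8. The 2 bins at chr13:15900001-16100000, with Inhba, went from -0.0133 to -0.0298. At Inhba the score was also lower with UNC0642 in Suv39h DKO (-0.0138 without and -0.0287 with it), while in the Setdb1 line the 4 values were between -0.0228 and -0.0175.

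The rising runs of 3 bins lay on chromosomes 13, 14 and 15. At chr13:30500001-30800000, with Uqcrfs1, the Rieske subunit of respiratory complex III, the phosphatase gene Dusp22 and Irf4, the mean score went from -0.00140 to 0.0116, a change of 0.0130 with an SD of 0.00336 over bins. UNC0642 was followed by a rise of 0.0121 in Setdb1 WT as well, from -0.00325 to 0.00883, but by a fall of 0.0115 in Suv39h DKO, from 0.0139 to 0.00237, and a change of -0.00191 in Setdb1 KO. At chr15:3000001-3300000, with the selenium transporter gene Selenop, the score went from -0.0208 to -0.00830. The run at chr14:19300001-19600000 holds 3 predicted genes (Gm21738, Gm2244 and Gm2237) and went from -0.0444 to -0.0301, and 50.4% of its sequence windows are repeated on chromosome 14.

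Rising runs of 2 bins were in A and B. In A, the run with Shoc2, Bbip1 and Adra2a on chromosome 19 went from 0.0104 to 0.0269, that with Ttc39c on chromosome 18 from 0.0259 to 0.0415, that with Arf4, Pde12 and Dnah12 on chromosome 14 from 0.00927 to 0.0237, and that with Polr3a and Rps24 on chromosome 14 from 0.0125 to 0.0265. In each of these 4 the Suv39h WT score was the lowest of the 8 libraries. The Suv39h WT + UNC score was within the range of the other 6 in 3 of them, and in the Arf4 run it was just under their lowest (0.0237). At chr18:13200001-13400000, which has no gene start, the score crossed from -0.0147 to 0.00195. The single bin with the receptor gene Il17rb and the choline dehydrogenase gene Chdh rose from 0.0142 to 0.0380, and it also rose by 0.0149 in Setdb1 WT and was higher by 0.00681 in Suv39h DKO with UNC0642.

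**Figure D4:**
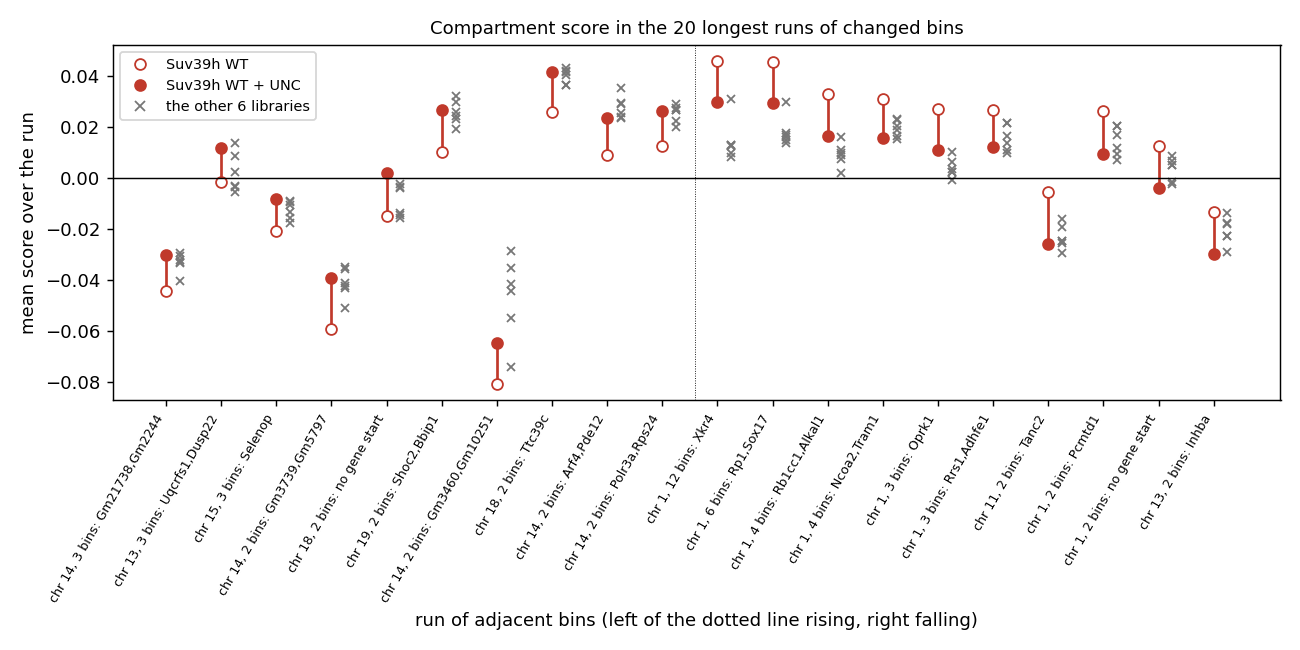
Mean compartment score over the 10 longest rising runs (left of the dotted line) and 10 longest falling runs (right), with Suv39h WT as open circles, Suv39h WT + UNC as filled circles and the other 6 libraries as crosses; labels give chromosome, number of bins and up to 2 genes. Suv39h WT lies outside the range of the crosses in 8 of 10 rising and 10 of 10 falling runs, and Suv39h WT + UNC in 3 and 4. Runs of 2 bins were picked from 26 rising and 32 falling runs of that length by the larger mean change.

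The position of the untreated library at these runs was seen across called bins. Of the 542 rising bins scored in all 8 libraries, Suv39h WT was below all 6 other libraries in 55.5% and Suv39h WT + UNC above all 6 in 42.8%. Of the 607 falling bins, Suv39h WT was above all 6 in 65.9% and Suv39h WT + UNC below all 6 in 38.2%. Over all 23972 such bins Suv39h WT was outside the range of the other 6 in 33.5% and Suv39h WT + UNC in 27.8%, with median distances from their mean of 0.00313 and 0.00277. Without chromosome 1 the falling bins gave 61.3% and 42.3%. These bins were picked by the difference of the pair, so one or both of its libraries had to be extreme there, and only the balance between them is described.

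Bins called here were also the less steady ones in the libraries that did not choose them. The SD over the other 6 libraries had a median of 0.00452 in the 1151 called bins and 0.00338 in the rest. From the class of bins with the smallest such SD to that with the largest, the share rising went from 0.917% to 4.29% and the share falling from 1.04% to 4.88%.

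Bins rich in repeated sequence changed more often. Each bin was given the share of its 64-base windows that occur more than once on its chromosome. The 779 bins with over 25% repeated windows had 5.52% rising and 5.52% falling and an SD of the change of 0.00663, against 2.68% rising, 1.67% falling and an SD of 0.00474 in the 4299 bins with under 1%. Most called bins were not of this kind, and the bin with the largest fall, on chromosome 1, had 1.02% repeated windows. A block of such bins was the start of chromosome 14, chr14:3000001-7700000, where at least 56.4% of each bin's windows are repeated. Of its 44 bins, 9 rose and 7 fell by at least 0.01, and the correlation of neighbouring bins was -0.00387. It held 4 of the 5 largest single rises, the largest at chr14:6000001-6100000, from -0.0656 to -0.0292. The other 3 were at chr14:7300001-7400000 (-0.0654 to -0.0374), chr14:4700001-4800000 (-0.0508 to -0.0230) and chr14:6600001-6700000 (-0.0842 to -0.0624). Rising runs of 2 bins began at the first and last of these, with means of -0.0592 to -0.0392 and -0.0806 to -0.0645. The block also held the second largest single fall, at chr14:3200001-3300000, from -0.0399 to -0.0694. The fall of 0.0246 at chr7:22500001-22600000, a bin of the Vmn1r152 pheromone receptor gene with 98.3% repeated windows, from -0.0356 to -0.0602, was of the same kind.

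A window from the bin with the largest rise is an example of sequence that these bins share. It was chosen because among the windows of that bin examined its exact copies reached the most called bins of the block. It lies at chr14:6028801-6028864 (GRCm38.p6, plus strand), and capitals mark the DpnII site.
Repeated window of chromosome 14: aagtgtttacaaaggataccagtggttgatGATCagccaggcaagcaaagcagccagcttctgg
These 64 bases occur 31 times on chromosome 14, in either orientation, in 30 bins. Of the 28 of them scored in both libraries, 9 rose and 3 fell by at least 0.01, with changes from -0.0179 to 0.0364. These counts follow in part from the choice of window. Reads were kept only above a mapping quality of 10, and the part played by reads that fit several copies was not tested. Without bins of over 10% repeated windows, 2.19% rose and 2.33% fell, and 17 rising and 25 falling runs were left.

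Domains were then compared by size. A domain here is a stretch of adjacent bins of one sign. Suv39h WT had 998 A domains with a median of 0.4 Mb and 1025 B domains with a median of 0.5 Mb, and Suv39h WT + UNC had 979 and 1004 with the same medians. The longest A domain was 16.1 Mb in Suv39h WT and 15.8 Mb in Suv39h WT + UNC, and the longest B domain was 12 Mb in both. Few domains switched as a whole, and most of those that did were single bins. Of the 129 B domains of Suv39h WT whose bins all became A, 112 were single bins, 15 had 2 bins and 2 had 3 bins. Of the 123 A domains whose bins all became B, 111 were single bins, 11 had 2 bins and 1 had 3 bins.

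With domains set by Suv39h WT, 35.9% of the 507 bins in B domains of 1 to 2 bins switched to A and 31.1% of the 530 bins in A domains of that size switched to B, against 0.918% and 1.03% in domains of over 20 bins. In numbers these were 182 and 165 of the 940 switching bins, with 80 and 69 in domains of over 20 bins and the rest in domains between, so most switching bins lay in domains of 3 bins or more. Mean changes were 0.00241 in the small B domains and -0.00227 in the small A domains. Since a small domain of Suv39h WT is partly defined by the library that is subtracted, the same was done with domains from the mean of the other 6 libraries. The mean changes were then 0.000246 in B domains and 0.000596 in A domains of 1 to 2 bins, so the fall in small A domains did not hold. Sign differences between the pair again rose steadily as domains became smaller. They were seen in 1.34% of bins in B domains and 1.76% in A domains of over 20 bins. In domains of 1 to 2 bins the shares were 23.9% and 18.0%. Bins of small domains tend to score close to 0, where a small difference of any origin turns the sign. The rise therefore cannot show that small domains responded more.

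Changes were also more frequent at domain borders. By the independent domains, 16.3% of B bins and 15.3% of A bins next to a border differed in sign between the libraries. The shares were 0.670% and 0.870% of those over 5 bins away. Bins at a border tend to score close to 0 as well, so this contrast cannot show a stronger response there. Changes of at least 0.01 were made by 6.86% of B and 5.93% of A bins next to a border and by 4.03% and 4.35% of those over 5 bins away. They were no less frequent at the next bin inwards, with 6.95% of B and 6.50% of A bins. The interior of B fell slightly, with a mean of -0.000426 over 7614 bins, and the interior of A had a mean of 0.000188 over 5978 bins.

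Over all bins the mean change rose with gene content and with GC content. Bins without a protein-coding gene start (13938) had a mean of -0.000142, bins with 1 start 5.64e-05, bins with 2 to 3 starts 0.000201 and bins with 4 or more starts (1377) 0.000349. In the last class 2.03% rose and 1.38% fell, while in bins with no start 2.17% rose and 2.73% fell. By GC content, the mean went from -0.000723 in the class with the lowest GC (33.5% to 38.2%), through -0.000406, 0.000102 and 0.000403, to 0.000522 in the class with the highest (45.3% to 58.9%). Falls outnumbered rises in the lowest GC class (2.88% against 1.08%) and rises outnumbered falls in the highest (2.17% against 0.959%). With a linear fit on GC content removed, bins with 4 or more gene starts were no longer above those with none (difference -8.78e-05, against 0.000491 before). Within B by the other 6 libraries, bins with 4 or more starts (-0.000282) were not above those with none (-0.000261), although bins with 2 to 3 starts were (0.000300), while within A the means were 0.000510 and 0.000185, or 0.000422 and 0.000321 without chromosome 1. In the other pairs the means with no start and with 4 or more were 0.000535 and -0.00139 in Setdb1 WT, where the order was the reverse, -0.000124 and 0.000639 in Setdb1 KO, and 1.95e-05 and 0.000120 in Suv39h DKO, where bins with 2 to 3 starts were lowest (-0.000262).

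The GC trend was present within each compartment. In B bins by the other 6 libraries, the mean change went from -0.000701 at the lowest GC to 0.00122 at the highest, where 8.58% of 233 bins rose and 1.72% fell. In A bins it went from -0.00158, over 121 bins, to 0.000487. Without chromosome 1 the values in A were -0.000895 and 0.000365. In the 3 pairs that share no library with this comparison, the means at the lowest and highest GC were -0.00115 and 0.00151 in Setdb1 WT, -0.000777 and 0.000614 in Suv39h DKO, and 0.000330 and -0.000746 in Setdb1 KO, where the order was turned. The correlation of the change with GC content across the 23985 bins was 0.0872 in Suv39h WT. The number of DpnII sites in a bin gave little order (r = 0.0107). The part of base composition in these changes was not tested.

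**Figure D5:**
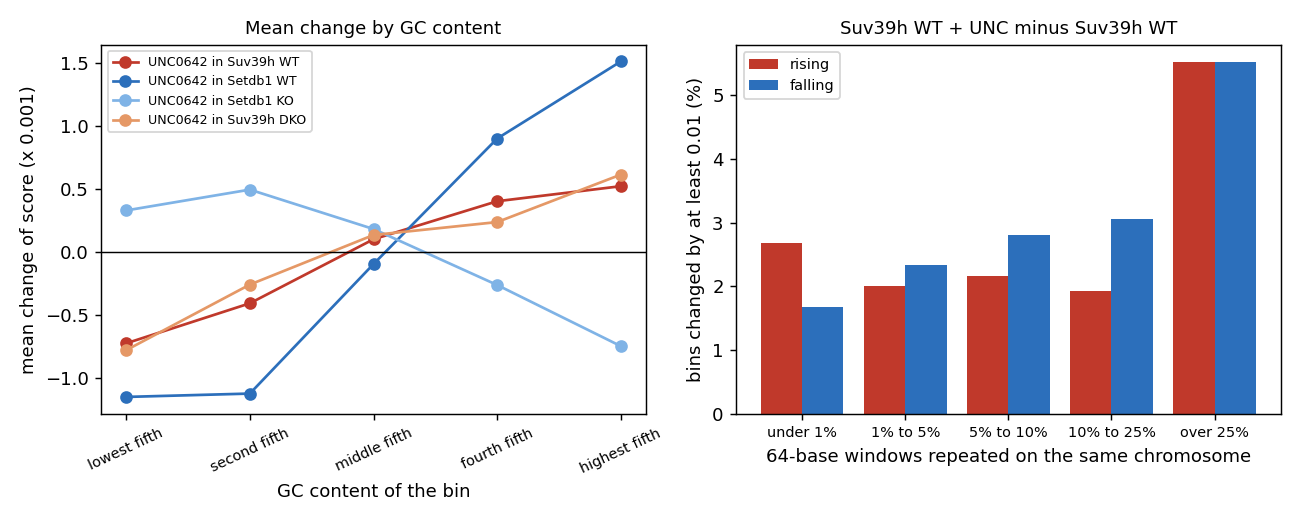
Mean change of score with UNC0642 in units of 0.001 by GC content of the bin in the 4 pairs of libraries (left), and percentage of bins rising (red) and falling (blue) by at least 0.01 in Suv39h WT + UNC against Suv39h WT by the share of 64-base windows repeated on the same chromosome (right). The means run from -0.000723 to 0.000522 in Suv39h WT and in the opposite direction in Setdb1 KO, and 5.52% of the bins with the most repeated sequence moved in each direction.

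Genes of the H3K9 methylation system had no bin changed by 0.01. This was 0 of 17 bins for H3K9 methyltransferases and partners, a list in which the 4.80% changed over all bins would give less than 1 bin. Ehmt2, the gene of G9a, scored 0.0555 in Suv39h WT and 0.0589 in Suv39h WT + UNC. Ehmt1, the gene of GLP, scored 0.0330 and 0.0339. Setdb1 went from 0.0480 to 0.0547 and Suv39h2 from 0.00734 to 0.0107. The largest move was that of Cbx5, which encodes HP1 alpha, from 0.0381 to 0.0461, and Cdyl, a reader of H3K9 methylation close to 0, was the only member to change sign (0.000168 to -0.00323). None of the 9 demethylase bins and none of the 9 bins of lamina and tether genes changed by 0.01. Lbr, the lamin B receptor that binds heterochromatin, scored 0.0302 and 0.0334, and Lmnb1 0.0691 and 0.0617.

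Among genes of cell identity, single bins moved. Over all bins 4.80% changed by at least 0.01, with 2.26% rising and 2.53% falling, and these lists are too short to be set apart from that. In pluripotency, 1 of 18 bins changed, that of Tfcp2l1, from 0.0321 to 0.0439, and the lowest change was that of Lin28a, an RNA-binding regulator of let-7, from 0.0421 to 0.0326. Of 24 lineage regulator bins 1 fell, that of Sox17 (0.0473 to 0.0286), which lies in the chromosome 1 range above. The Sox17 bin was also lower with UNC0642 in Suv39h DKO, at 0.0317 without and 0.0135 with it. Of 17 bins of 2-cell-stage genes, 2 fell and 0 rose, those of Tdpoz5 (-0.0342 to -0.0500) and Usp17ld (-0.0235 to -0.0336), and the list median was -0.00237 against 1.66e-05 over all bins. The 21 germline bins, which hold genes repressed outside the germline, and the 21 bins at the starts of long neuronal genes had no change of 0.01, and 20 of the latter were in B in both libraries.

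Of the 21 bins of imprinted genes, 2 rose, beside 2.26% of all bins. Both lay in the Dlk1-Dio3 domain of chromosome 12. They are neighbours, chr12:109500001-109600000 and chr12:109600001-109700000, and so make up a single stretch rather than separate places. The bin of Meg3, the maternally expressed non-coding RNA, went from 0.00398 to 0.0154, and that of Rtl1, the paternally expressed retrotransposon-like gene, from 0.000547 to 0.0112. UNC0642 was followed by a change of 0.00576 at Meg3 and 0.0101 at Rtl1 in Suv39h DKO. In the Setdb1 line the changes were 0.00118 and 0.00344 in Setdb1 WT and 0.00509 and -0.00194 in Setdb1 KO.

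Gene families were called at shares from 0 upwards, where 2.26% of all bins rose and 2.53% fell. Bins of the replication-dependent histone clusters had 3 of 13 rising and 0 falling. The list median was 0.00410, against 1.66e-05 over all bins, in a list of few bins. The Hist2h bin of chromosome 3 went from 0.0349 to 0.0463, the bin from Hist1h2ah to Hist1h2bj on chromosome 13 from 0.00337 to 0.0144, and the bin of Hist1h4h and its neighbours from 0.0169 to 0.0288. With UNC0642 in Setdb1 WT these bins changed by 0.00349, -0.0148 and -0.0158. Ribosomal protein genes had 3 of 75 bins rising and 0 falling. These were the bins of Rps24 and of the copies Rpl10l and Rpl39l, which are used in the testis.

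Receptor families that lie mostly in B had calls in both directions, beside 2.26% of all bins rising and 2.53% falling. Olfactory receptors, the largest family, had 4 of 333 bins rising and 6 falling, from 0.0139 at Olfr727 to -0.0147 at Olfr835. Type 1 vomeronasal receptors, which detect pheromones, had 6 of 97 rising and 5 falling, and type 2 had 3 of 93 rising and 5 falling. Their largest changes were at Vmn1r152, given above, and Vmn2r45 (-0.0235 to -0.0390), both on chromosome 7. Cyp genes, the cytochrome P450 family, had 2 of 75 rising, at Cyp2c68 (-0.0527 to -0.0354) and Cyp2a4 (-0.00271 to 0.00938), and 1 falling, at Cyp2b9 (-0.0133 to -0.0293). Defensins had 2 of 22 rising, with Defa26 from -0.0532 to -0.0407 and Defb33 from -0.0186 to -0.00733.

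The remaining families had few calls. Zinc finger genes of the Zfp series, many of which encode repressors of transposable elements that recruit SETDB1 through TRIM28, had 5 of 279 bins rising and 7 falling, from 0.0143 at Zfp873 to -0.0137 at the bin of Zfp251 and Zfp7. Keratin genes had 1 of 36 rising (Krt80, 0.0225 to 0.0353) and 1 falling, a bin of Krtap genes that crossed from 0.00320 to -0.0107. Clustered protocadherins had 1 of 10 falling, at Pcdhb20 to Pcdhb22 (0.0152 to 0.00236). Serpins had 1 of 36 falling (Serpine3, 0.0324 to 0.0197). Skint genes had 1 of 9 falling (Skint8, -0.0148 to -0.0282) and major urinary and odorant-binding protein genes 1 of 19 (Mup2, -0.0359 to -0.0506). Hox clusters (9 bins), Speer genes (13 bins) and natural killer lectins (14 bins) had no change of 0.01. Over all bins 2.26% rose and 2.53% fell, and most of these lists are too short to be set apart from that.

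UNC0642 changes in the 3 other backgrounds share no library with this pair and could be set beside it. In Setdb1 WT, 3.51% of bins rose and 4.62% fell by at least 0.01. Suv39h DKO had 3.05% rising and 3.70% falling, and Setdb1 KO had fewest, with 0.755% rising and 0.934% falling. Of the bins rising in Suv39h WT, 53 of 543 also rose in Setdb1 WT (9.76% of the list here and 6.30% of the list there) and 34 fell (6.26%). Of those falling in Suv39h WT, 65 of 608 also fell (10.7% here and 5.87% there) and 27 rose (4.44%). Both the same and the opposite direction were thus more frequent among these bins than over all bins of Setdb1 WT.

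Suv39h DKO gave 47 of 542 rising bins also rising (8.67% here, 6.43% there) and 30 falling (5.54%), and 81 of 607 falling bins also falling (13.3% here, 9.14% there) and 30 rising (4.94%). Without chromosome 1 the last overlap was 43 of 494 (8.70%), with 5.87% rising. In Setdb1 KO the overlap was 10 of 543 rising bins (1.84%), with 10 falling, and 8 of 608 falling bins (1.32%), with 9 rising. Across bins, which share chromosomes and base composition, the change in Suv39h WT correlated at 0.0494 with that in Setdb1 WT, at 0.0702 with that in Suv39h DKO and at -0.00270 with that in Setdb1 KO, and at 0.0480 in Suv39h DKO without chromosome 1.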

How the data were processed

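Hi-C compartment scores of 8 mESC groups, 1 library each, were used. Per the labels and the study's methods, the authors digested chromatin with DpnII, processed reads against mm10 with the 4D Nucleome pipeline, kept alignments of mapping quality above 10 and used Juicer to take the first eigenvector of each KR-normalised autosomal map. The deposited score per 100-kb bin is that eigenvector. Each chromosome averages 0 and its squares sum to between 0.860 and 0.996 in the pair compared, which is how a unit vector minus its mean would appear; this step is inferred. Hi-C was repeated in the study, which lists read numbers for each repeat and compares the repeats' scores. Which repeat or pool each file holds is not given in the sources used here, so no depth was tied to a file and scores of single repeats were not analysed here.

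Scores were subtracted, UNC0642 minus untreated, with Python 3.11.15, numpy 2.4.6 and pandas 2.3.3. Changes of at least 0.01 were counted. No bin lay outside GRCm38, which shares coordinates with mm10. Genes were from GENCODE vM21 and promoters from RefSeq (GRCm38.p6). Repeated windows were searched on both strands at every 20th start. Runs were at least 2 adjacent bins changed the same way; the 10 longest each way (the larger mean change first where lengths were equal), the 5 largest single bins each way, list members changed by 0.01 and the extreme members of each family were named, with up to 6 genes a run. Calling and run finding were tested on simulated data. The members and gene lists were chosen with earlier results of these data known. With 1 library a side no test was possible.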

Additional observations from a re-analysis of the deposited data

Results flagged for a closer look

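Among the 10 longest runs and 5 largest single bins each way, 5 had a change of at least 0.01 in Suv39h DKO opposite to that in Suv39h WT. They are listed because of that direction, and in none of these differences was a test possible. At the Irf4 run of chromosome 13 (chr13:30500001-30800000) the change was 0.0130 in Suv39h WT and -0.0115 in Suv39h DKO. The other 4 were single bins. On chromosome 14 the changes were 0.0364 and -0.0272 at chr14:6000001-6100000, 0.0278 and -0.0282 at chr14:4700001-4800000, and -0.0295 and 0.0175 at chr14:3200001-3300000. At the Vmn1r152 bin of chromosome 7 they were -0.0246 and 0.0208. The share of repeated windows was 84.1%, 82.6%, 88.7% and 98.3% in these 4 bins and 1.74% at the Irf4 run. More of the named runs and bins changed by at least 0.01 the same way in both backgrounds. Examples, with Suv39h WT first, are chr1:3000001-4200000 (-0.0163 and -0.0231), chr14:6600001-6800000 (0.0161 and 0.0193) and the Inhba run (-0.0165 and -0.0149).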

How the results depend on the processing

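No paired analysis was possible because each group has 1 library and no test was made. A value is called moved where it differs over 1.5 times from that reported. Of 130 values under other settings, 86 were within 1.5 times of it with the same sign, 40 moved and 4 reversed. The reversals were the mean of deep B (-0.000193) and strong A (0.000184) with classes from the other 6 libraries, the mean of small A domains (0.000596) with domains from the other 6, and the gene content difference (-8.78e-05) without GC. With classes from the mean of the pair, deep B was 5.82e-05 and strong A -8.50e-05, and small B domains from the other 6 gave 0.000246. With the implied chromosome mean subtracted, deep B was 0.000761. With it added, A to B switches (2.46%) outnumbered B to A switches (2.20%), and with quantile normalization they were equal (1.95%).

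The counts followed the threshold and bin size. At 0.02, 0.0417% of bins rose and 0.0542% fell, with 0 rising and 1 falling runs. At 0.005, 13.3% rose and 13.6% fell, with 445 and 442 runs. Means of 500 kb gave 0.0208% rising, 0.187% falling, 1.33% B to A, 0.956% A to B, and class means of 0.000316 in deep B and -0.000324 in strong A. A running mean over 3 bins gave 0.167% rising, 0.359% falling, and 9 rising and 14 falling runs. With a Suv39h WT score of at least 0.005 either way, 0.517% went B to A and 0.434% A to B. At 0.4 SD, 28.8% of falling bins were on chromosome 1. At 0.005 the overlaps of rising and falling bins were 21.3% and 19.03% for Setdb1 WT, 10.9% and 11.1% for Setdb1 KO, and 19.9% and 20.8% for Suv39h DKO.

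Further settings were chosen after seeing the data. Falling runs numbered 21 without chromosome 1 and 22 without its first 35 Mb, where the falling overlap with Suv39h DKO was 8.70% and 8.48%. Without bins of over 10% repeated windows there were 17 rising and 25 falling runs. With a running mean of about 5 Mb removed there were 16 falling runs, 3.85% of chromosome 1 bins changed and 8.15% of falling bins were on it. The causes of these differences were not tested.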
